A study of Mus musculus with 9 samples.

Results

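Maternal imprint regions are stretches of DNA that receive methylation in the oocyte and keep it on the maternal chromosome in the cells of the body. This mark silences a promoter on that chromosome, and in many but not all cases the gene is read from the paternal copy. Primordial germ cells, the embryonic precursors of eggs and sperm, remove these marks before new ones are set according to the sex of the embryo. The product of Tet1 is an enzyme that oxidises 5-methylcytosine, and whole-genome bisulfite sequencing was used here to ask how much methylation is left where the enzyme is missing. The 9 regions described lie on chromosomes 2, 10, 11, 15, 17 and 18 and were taken by fixed mm9 coordinates, with every CpG site inside them that was listed in both deposited tables. They held 405 such sites, of 11380646 sites listed in both tables over the whole genome.

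The germ cells came from female C57BL/6 embryos at embryonic day 13.5. The WT group was wild type, with 4 libraries from 1575 to 5251 cells each. The Tet1-null group carried Tet1 -/-, with 5 libraries from 1400 to 4700 cells. Libraries 1 and 2 of that group list the same number of cells, and the labels do not say whether they are separate samples. The labels used here do not say which allele makes the deletion, whether libraries came from separate embryos or how the cells were sorted, and the deletion was not checked. The libraries of each genotype were pooled in 1 table, called WT and Tet1-null below, so every difference is between 2 pools, with no replicate check. Because of the pooling, no difference could be adjusted for bisulfite kit or sequencing run. WT had 2 libraries of the Sigma kit and 2 of the Zymo kit, and Tet1-null had 2 and 3. Runs 2 and 3 held libraries of both genotypes, and run 1 held 1 WT library only. The WT table held 13730600 sites with 30386353 reads and the other, Tet1-null, held 16372728 sites with 46716079 reads. A level is the share of methylated reads among all reads at the sites, with a Wilson 95% interval, and a difference is Tet1-null minus WT in percentage points, with a Newcombe 95% interval. For a level of 0 the limit printed is instead that of 3 counts over the reads, which differs from the upper end of the Wilson interval drawn in the plot of levels. All of these cover counting error only. The CpGs of 1 DNA molecule are read together, so reads at neighbouring sites are not independent and these intervals are too narrow.

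Over the 9 regions together, 25 of 810 reads were methylated in WT, 3.09%, and 173 of 1166 in Tet1-null, 14.8%. The difference was 11.8 points (9.35 to 14.1). At autosomal sites listed in both tables the levels were 3.33% and 3.95%, a difference of 0.623 points. The WT pool was therefore about as low in these regions as on the autosomes, while the Tet1-null pool was higher in them. Mitochondrial DNA, which reads out incomplete bisulfite conversion, was at 1.66% in WT and 1.29% in Tet1-null. At sites listed in both tables, 5 of the 9 regions were higher in Tet1-null with an interval above 0, and none was lower. The 5 were Nnat, Nespas, Zrsr1, Peg13 and Impact. Among 30311 autosomal windows of 2 kb with at least 20 listed CpG positions per kb, 4.20% were higher and 3.06% lower by the same rule. The regions are 1 to 7.7 kb long, and the share among 9889 such windows of 5 kb was 5.06% higher and 4.72% lower. In 1 kb windows of that density it was 4.20% and 2.59%. Without the limit on density, the shares were 2.92% and 1.82% of 1 kb windows, 2.57% and 1.89% of 2 kb windows and 3.59% and 2.62% of 5 kb windows. Grb10 and Airn had higher values in Tet1-null with intervals that included 0, and Mcts2 and Plagl1 had too few reads for a comparison. The count depends on the choice of sites. With all sites listed in each table, Grb10 and Airn had intervals above 0, Impact did not, and Plagl1 was lower (-18.2 to -1.46). The shares of windows above are for sites listed in both tables. No share by this rule was computed for windows over all listed sites. Over the processing alternatives the interval stayed above 0 in 12 of 12 for Nespas and 11 of 12 for Zrsr1. It did so in 8 of 12 for Nnat, 7 of 11 for Impact and 6 of 12 for Peg13.

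**Figure D1:**
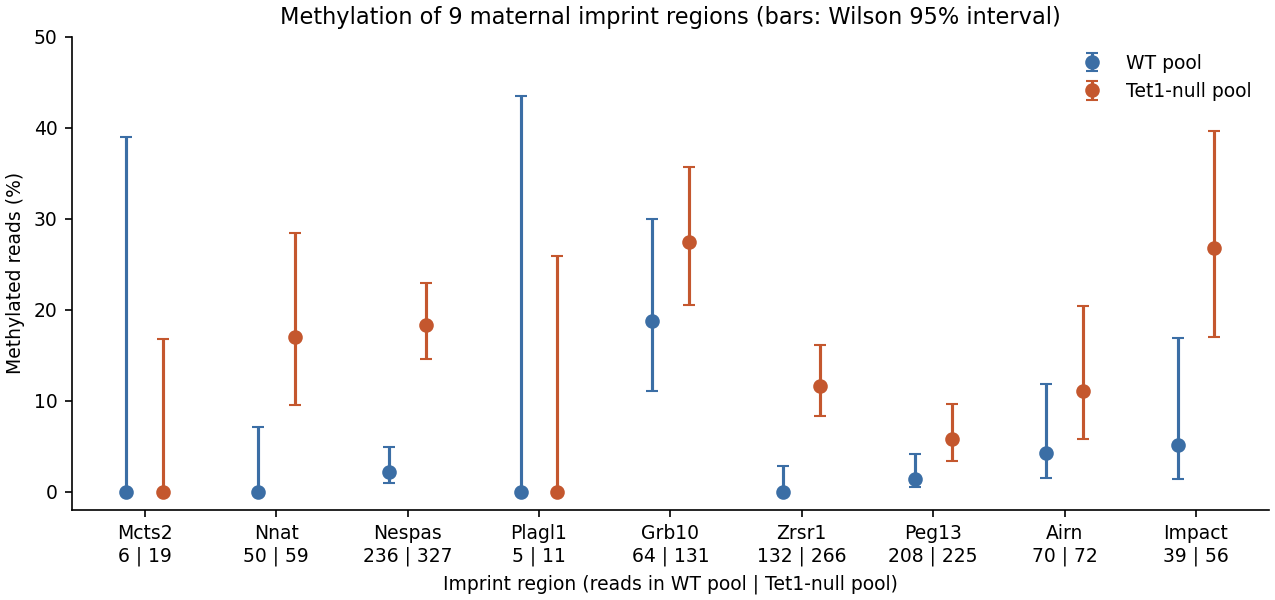
Methylated reads in percent (vertical axis) for each of the 9 regions, in WT (blue) and the Tet1-null pool (orange), with Wilson 95% intervals as bars and the number of reads under each name. The Tet1-null point is higher in 7 regions, and both points are at 0 in Mcts2 and Plagl1.

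Single sites showed the same difference. In the WT pool 384 of the 405 sites held no methylated read, and in Tet1-null 298 did. These are 94.8% and 73.6% of the sites, against 94.3% and 91.7% on the autosomes. Sites at a level of 50% or more numbered 18 in WT, 4.44%, and 68 in Tet1-null, 16.8%, against 3.65% and 3.93% on the autosomes. The Tet1-null level was the higher one at 104 sites, 25.7%, and the lower one at 19 sites, 4.69%, against 7.46% and 5.08% of autosomal sites listed in both tables. A methylated read was seen at 21 sites in WT, at 107 in Tet1-null and at 4 in both pools. The share of such sites on the autosomes was not computed, so the 4 are not read as a trait of the regions. Depth was low, at 2.00 reads per site in WT and 2.88 in Tet1-null, and close to the autosomal means of 2.25 and 2.96.

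Promoter sequences from RefSeq (build GRCm38.p6, 250 bases before to 50 after a gene's start) show the sequence at the starts of some of these genes. They do not stand for the whole regions. Of the 9 genes, 6 had an entry. Because the tables use mm9, each sequence was placed by the spacing of its CpGs, which had to account for every listed position in its 300 bases, and 5 genes could be placed. The promoters of Mcts2, Nnat, Plagl1 and Zrsr1 fell inside their regions, and a promoter of Grb10 fell 1325 bases outside. The 3 with most sites listed in both tables are printed 5′ to 3′ on the strand of the gene, with those sites in capitals. Nnat is at chr2:157559828-157560127 (plus strand), Zrsr1 at chr11:22971755-22972054 (plus strand) and Grb10 at chr11:12027922-12028221 (minus strand) of GRCm38.p6.
Nnat: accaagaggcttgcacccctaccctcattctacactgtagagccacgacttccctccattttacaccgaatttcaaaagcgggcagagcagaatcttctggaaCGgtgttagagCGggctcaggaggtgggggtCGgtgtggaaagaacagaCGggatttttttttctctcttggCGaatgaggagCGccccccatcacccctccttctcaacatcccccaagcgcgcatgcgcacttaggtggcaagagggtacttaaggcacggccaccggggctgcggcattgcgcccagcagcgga
Zrsr1: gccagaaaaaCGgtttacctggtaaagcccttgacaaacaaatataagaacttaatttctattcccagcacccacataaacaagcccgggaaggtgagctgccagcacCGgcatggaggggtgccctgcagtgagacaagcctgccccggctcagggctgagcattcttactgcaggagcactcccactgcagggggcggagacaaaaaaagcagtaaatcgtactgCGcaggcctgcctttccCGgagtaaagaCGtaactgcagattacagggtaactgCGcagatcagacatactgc
Grb10: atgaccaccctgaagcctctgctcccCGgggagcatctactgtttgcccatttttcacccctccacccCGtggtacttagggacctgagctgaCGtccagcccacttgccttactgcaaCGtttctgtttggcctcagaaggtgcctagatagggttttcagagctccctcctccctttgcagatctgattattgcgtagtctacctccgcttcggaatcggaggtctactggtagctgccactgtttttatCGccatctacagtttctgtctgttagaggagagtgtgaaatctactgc
The hexamer TGCCGC, known as the methylated motif bound by ZFP57, a protein that keeps imprints in the early embryo, was searched on both strands. It occurred once each in the promoters of Mcts2, Nnat and Plagl1 and in the CpG-rich promoter of Grb10 that could not be placed. It was not among the letters of the Zrsr1, Airn and printed Grb10 promoters. Of 32851 promoters in the table, 11.6% hold it, and 3527 of 27025 genes hold it in any promoter. The hexamer contains a CpG, and whether it is more frequent here than at promoters of like CpG content was not tested.

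The regions of 3 non-coding RNA genes come first. Nespas is transcribed antisense to a transcript of the Gnas cluster, which encodes the stimulatory G protein subunit, and its region (chr2:174119000-174126700) is the longest of the 9. It held 5 methylated reads of 236 in WT, 2.12% (0.908 to 4.86%), and 60 of 327 in Tet1-null, 18.3% (14.5 to 22.9%). Nespas was higher in Tet1-null by 16.2 points (11.5 to 20.9), and it kept an interval above 0 under all 12 alternatives tried. The methylated reads were spread along it. Of 36 stretches of 100 bp with a site listed in both tables, 3 held a methylated read in WT and 17 in Tet1-null. The stretch from 174124300 to 174124399 held 0 of 16 reads and 19 of 32, and the difference without it was 11.6 points (7.07 to 16.2). Of 5 sites with at least 5 reads in both pools, position 174122478 had 0 of 5 and 2 of 7 methylated reads, and position 174126254 had 0 of 6 and 2 of 5. Position 174126257 had 2 of 6 and 2 of 5, and the other 2 sites had no methylated read. The deepest sites thus ranged from no methylation in both pools to partial methylation in both.

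Windows of 1 kb were tested over the whole genome with Fisher's exact test (two-sided, Benjamini-Hochberg over 372073 windows). This test compares the reads of the pools and not the genotypes. It counts reads at neighbouring sites as independent, which they are not, so its p-values are too small. Of 35 windows that overlap the 9 regions, 23 had enough sites and reads. Of these, 3 were called higher in Tet1-null by 20 points or more at an adjusted p under 0.05, and none lower, where 0.0970% and 0.0637% of all windows were called. At any size of difference 5 were higher and none lower, against 0.101% and 0.0704% of all windows. Nespas held 2 of the 3. The window from 174124001 to 174125000 had 0 of 25 methylated reads in WT and 35 of 52 in Tet1-null (adjusted Fisher's exact p = 2.55e-05). The window from 174125001 to 174126000 had 0 of 66 and 42 of 110 (adjusted Fisher's exact p = 2.01e-06). This one depended on sites listed in the Tet1-null table only: at sites listed in both, a setting chosen after seeing the data, it held 0 of 33 and 7 of 60 and an adjusted Fisher's exact p of 1. The window from 174124001 was still called there, with 0 of 20 and 19 of 34. On sites 100 bp apart, also chosen after seeing the data, that window held only 0 of 5 and 2 of 4.

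Airn is transcribed antisense to Igf2r, the receptor that clears the growth factor IGF2, and Airn silences Igf2r on the paternal chromosome. Its region (chr17:12934100-12935900) held 3 of 70 methylated reads in WT, 4.29% (1.47 to 11.9%), and 8 of 72 in Tet1-null, 11.1% (5.74 to 20.4%). The difference of 6.83 points had an interval of -2.46 to 16.6 and was not distinguishable from 0 at this depth. With all sites listed in each table, Airn had 3 of 81 and 30 of 185 methylated reads, and the difference was 12.5 points (4.44 to 18.98). The 1 kb window from 12934001 had 2 of 50 and 15 of 72 (adjusted Fisher's exact p = 0.580). Its 3 deepest sites, at 12935617, 12935725 and 12934509, had 0 methylated reads of 5 each in WT and 0 of 4, 1 of 4 and 1 of 3 in Tet1-null.

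Peg13 is a non-coding RNA gene inside Trappc9, a gene of vesicle transport. Its region (chr15:72636700-72642100) held 3 of 208 methylated reads in WT, 1.44% (0.492 to 4.15%), and 13 of 225 in Tet1-null, 5.78% (3.41 to 9.63%). Peg13 was higher by 4.34 points (0.734 to 8.31), the smallest of the 5 differences with an interval above 0. The interval included 0 when it was widened by the dispersion of reads between sites (-0.588 to 9.76), and the difference was 1.64 points (-1.77 to 5.08) without the stretch from 72640300 to 72640399, which held 6 of its 13 methylated reads. The window from 72640001 to 72641000 had 1 of 119 methylated reads and 23 of 162 (adjusted Fisher's exact p = 0.0199), and at sites listed in both 1 of 91 and 10 of 109 (adjusted Fisher's exact p = 0.753). The window from 72636001 had 2 of 26 and 0 of 25 (adjusted Fisher's exact p = 1). Positions 72640970 and 72640962 had at least 5 reads in both pools and no methylated read in either.

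**Figure D2:**
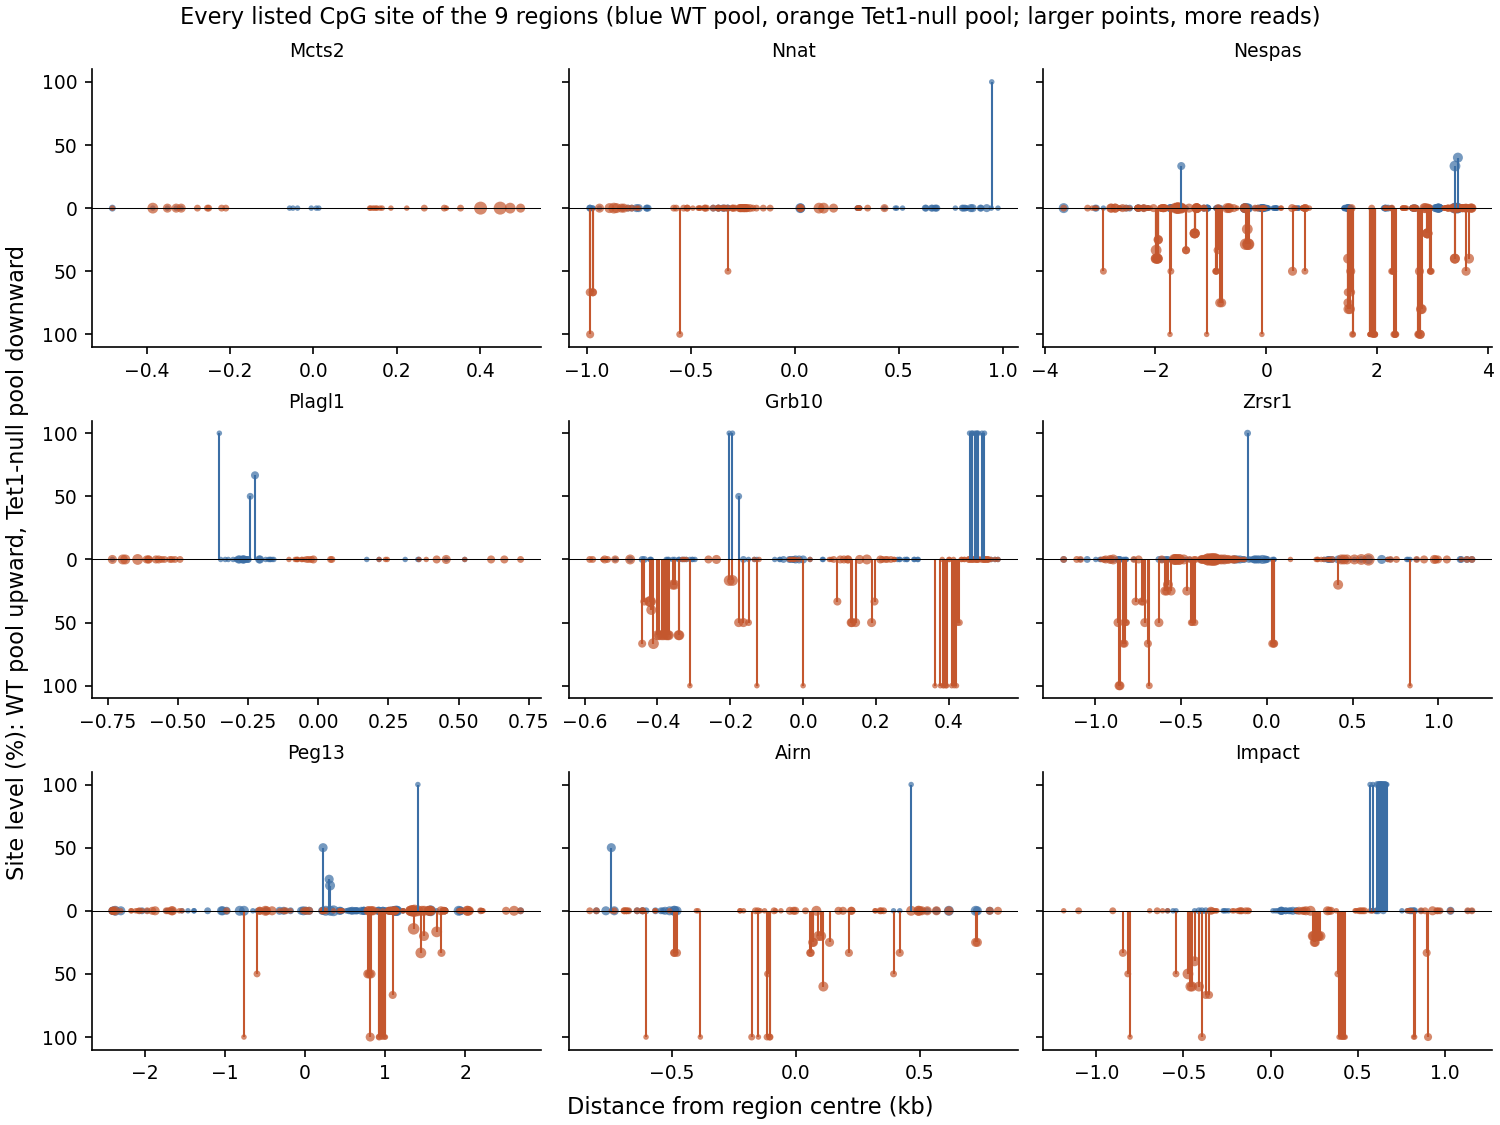
Level in percent of every CpG site listed in the 9 regions against its distance from the region's centre in kb, with WT sites drawn upward in blue and Tet1-null sites downward in orange, and larger points for more reads. Orange stems stand along the length of Nespas, while the WT stems of Grb10 and Impact stand in short clusters.

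The next regions belong to 3 small genes that lie inside larger host genes. Zrsr1, a gene for a splicing factor of the U2AF family, lies inside Commd1. Its region (chr11:22871700-22874200) held 0 of 132 methylated reads in WT, which allows a level of up to 2.27%, and 31 of 266 in Tet1-null, 11.7% (8.33 to 16.1%). Zrsr1 was higher by 11.7 points (7.29 to 16.1), with an interval above 0 under 11 of 12 alternatives. The exception was a minimum of 3 reads per site in each pool, with a difference of 1.25 points (-7.19 to 6.75). The gain was uneven. From 22871700 to 22872199 the Tet1-null pool had 16 methylated reads of 43, and from 22872200 to 22872699 it had 7 of 132, with none of 21 and none of 51 in WT. The 3 deepest sites, at 22872635, 22872646 and 22873542, had no methylated read among 4 each in WT and 9, 8 and 8 in Tet1-null. The 1 kb window from 22872001 had 2 of 124 and 41 of 234, a difference of 15.9 points, below the 20 points asked of a call, at an adjusted Fisher's exact p of 0.00348. At the printed Zrsr1 promoter all listed sites were unmethylated, with 12 and 16 reads.

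Nnat encodes neuronatin, a small membrane protein of neurons and endocrine cells, and lies inside Blcap. Its region (chr2:157385500-157387500) held 0 of 50 methylated reads in WT, which allows a level of up to 6%, and 10 of 59 in Tet1-null, 16.9% (9.48 to 28.5%). The difference was 16.9 points (6.62 to 28.5). It rested on the first 100 bp of the region, from 157385500 to 157385599, with 0 of 7 methylated reads in WT and 9 of 16 in Tet1-null. Without that stretch the difference was 2.33 points (-6.10 to 12.1). The printed Nnat promoter had no methylated read among 18 in WT and 30 in Tet1-null. The 1 kb window from 157385001 had 0 of 48 and 12 of 79 (adjusted Fisher's exact p = 0.390). Position 157385514 had 0 of 2 and 2 of 3 methylated reads, and positions 157386527 and 157386529 had none of 5 and 4 reads in WT and none of 3 each in Tet1-null.

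Mcts2 is a retrogene for a translation initiation factor inside H13, which encodes signal peptide peptidase. Its region (chr2:152512300-152513300) had only 5 sites listed in both tables, with 0 of 6 methylated reads in WT and 0 of 19 in Tet1-null. These allow levels of up to 50% and 15.8%. With all listed sites it had 0 of 12 and 0 of 74 methylated reads. The 1 kb window from 152512001, which reaches beyond the region, had 3 of 27 and 0 of 65 (adjusted Fisher's exact p = 0.877).

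The last 3 regions belong to genes of growth and translation control. Grb10 encodes an adaptor that binds the insulin receptor and restrains growth. Its region (chr11:11925400-11926600) held 12 of 64 methylated reads in WT, 18.8% (11.1 to 29.97%), the highest WT level of the 9 at sites listed in both tables, and 36 of 131 in Tet1-null, 27.5% (20.6 to 35.7%). The difference of 8.73 points had an interval of -4.46 to 19.97. Of the sites listed in both tables, 12 held a methylated read in WT, 20 in Tet1-null and 3 in both. From 11925400 to 11925899 these sites had 3 of 30 methylated reads in WT and 35 of 94 in Tet1-null. From 11926400 to 11926600 they had 9 of 16 in WT and 0 of 29 in Tet1-null. Of those 9 WT reads, 8 came from neighbouring sites over 35 bp with 1 read each. In that last stretch the Tet1-null pool did hold methylated reads at sites not listed in the WT table. The longest run of methylated sites in Tet1-null had 17 sites over 103 bp, with 42 of 84 reads methylated. The 1 kb window from 11925001 to 11926000 had 3 of 66 and 52 of 156 and was the third called window (adjusted Fisher's exact p = 0.00246). The window from 11926001, which uses all listed sites, had 9 of 39 and 23 of 135 (adjusted Fisher's exact p = 1). Of the 3 deepest sites, 11925579 and 11925581 had 0 of 1 methylated read in WT and 2 of 6 in Tet1-null, and 11925525 had 0 of 2 and 0 of 5. The printed Grb10 promoter had 0 of 12 methylated reads in WT and 5 of 13 in Tet1-null, a difference of 38.5 points (6.54 to 64.5).

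Impact encodes an inhibitor of the kinase GCN2, which slows translation when amino acids are short. Its region (chr18:13130800-13133400) held 2 of 39 methylated reads in WT, 5.13% (1.42 to 16.9%), and 15 of 56 in Tet1-null, 26.8% (16.96 to 39.6%). The difference of 21.7 points (6.33 to 34.99) was the largest of the 9 but depended on the choice of sites. At the 31 sites listed in the WT table only, 18 of 54 reads were methylated, and at the 60 sites listed in the Tet1-null table only, 33 of 148. With all listed sites the levels were 21.5% and 23.5%, and the difference was 2.02 points (-8.76 to 11.5). From 13131300 to 13131799 the WT pool had 0 of 10 methylated reads and the Tet1-null pool 13 of 22. The 1 kb window from 13132001 had 20 of 70 and 20 of 110 (adjusted Fisher's exact p = 1). The 3 deepest sites, at 13131689, 13131664 and 13131706, had none of 2, 1 and 2 reads methylated in WT and 3 of 5, 2 of 5 and 3 of 3 in Tet1-null.

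Plagl1 encodes a zinc finger transcription factor of the fetal growth network. Its region (chr10:12810200-12811700) had 5 sites listed in both tables, with 0 of 5 methylated reads in WT and 0 of 11 in Tet1-null, which allow levels of up to 60% and 27.3%. With all listed sites the WT pool had 4 of 52 methylated reads and the Tet1-null pool 0 of 89, so the difference was -7.69 points (-18.2 to -1.46). All 4 of these WT reads were at sites with no Tet1-null read. The Plagl1 promoter had 1 of 21 and 0 of 12 methylated reads. Mcts2 and Plagl1 were thus the regions where no methylated read was seen in Tet1-null.

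Levels next to the regions were compared with them, in flanks of 10 kb on each side that started 1 kb from the region. The WT pool was low in the flanks, from 0.749% beside Zrsr1 to 3.77% beside Peg13. The Tet1-null pool was at 1.21% beside Nnat, 4.23% beside Nespas, 2.86% beside Zrsr1, 1.33% beside Impact and 5.18% beside Mcts2, the highest. The difference between the pools in the region exceeded that in its flanks by 13.5 points in Nespas (8.42 to 18.7), by 17.5 points in Nnat (7.03 to 29.2), by 9.55 points in Zrsr1 (4.57 to 14.5) and by 23.2 points in Impact (7.57 to 37.0). The values of Nnat and Impact use the same sites as their differences of 16.9 and 21.7 points and share their limits. In Peg13 the excess was 4.13 points (-0.622 to 9.38), in Grb10 5.34 points (-8.34 to 17.2) and in Airn 4.72 points (-4.87 to 14.7), not distinguishable from 0. Mcts2 and Plagl1 had flank differences of 4.16 points (1.97 to 6.37) and 3.23 points (0.773 to 5.54), while their own reads were too few.

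**Figure D3:**
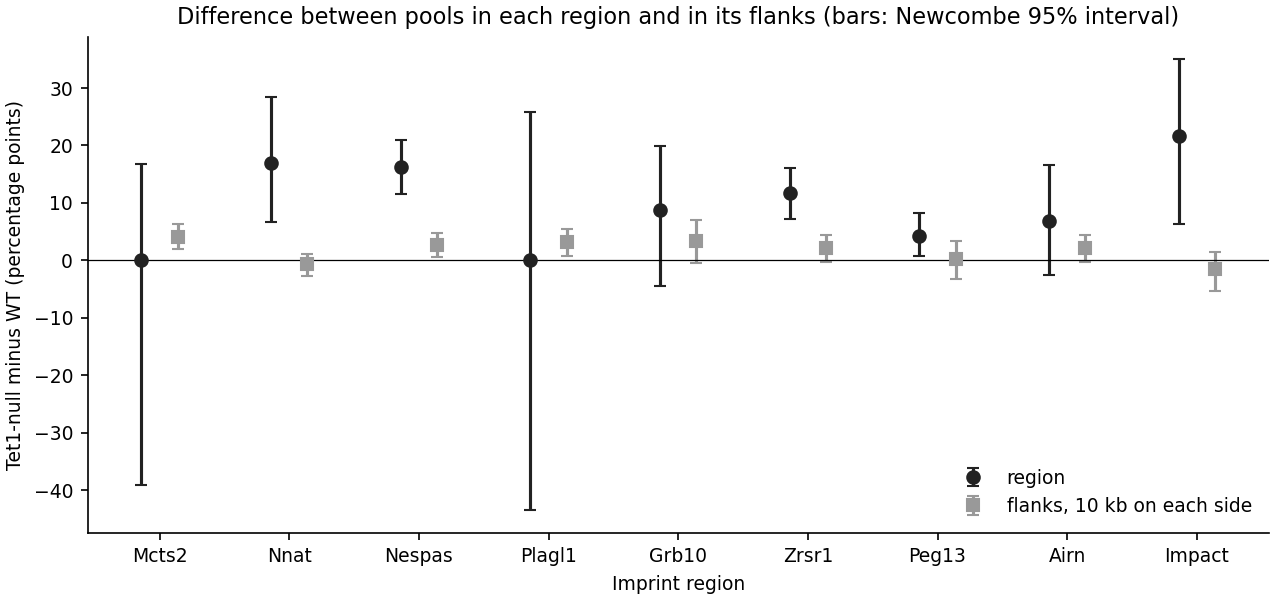
Tet1-null minus WT difference in percentage points (vertical axis) in each of the 9 regions (black circles) and in its flanks of 10 kb on each side (grey squares), with Newcombe 95% intervals as bars. In Nnat, Nespas, Zrsr1 and Impact the bar of the region lies above that of the flanks.

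The regions held from 26.3 listed CpG positions per kb in Peg13 to 102.5 in Grb10. Autosomal windows of 2 kb with at least 20 positions per kb were at 4.33% in WT and 4.74% in Tet1-null, and those of 5 kb at 3.33% and 3.42%. As a description, 1.55% of these 5 kb windows were at or above the Tet1-null level of Nespas and 0.162% at or above its difference, with medians of 115 and 154 reads per window. For Zrsr1, 7.70% of the 2 kb windows were at or above its Tet1-null level and 2.87% at or above its difference. Those windows had medians of 53 and 71 reads, fewer than the 132 and 266 reads of Zrsr1. For Peg13 the shares of 5 kb windows were 8.72% and 6.35%. The shares of 2 kb windows were 5.54% and 1.25% for Nnat, 3.92% and 0.627% for Impact and 8.17% and 7.50% for Airn. For Grb10 the shares of 1 kb windows were 5.06% and 8.76%. The values of Nnat and Impact share the limits given for their differences, and Mcts2 and Plagl1 had too few reads to place.

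Promoters of other imprinted genes were read in the same way, over all sites listed in each table, from a list of 15 genes, of which 12 had an entry and 11 could be placed. With at least 10 reads in each pool, 8 of them could be compared, and 1 was higher and 2 were lower in Tet1-null with intervals that excluded 0. Over 8459 autosomal promoters of that depth, 1.09% were higher and 1.60% lower. Kcnq1ot1, an antisense RNA gene that silences its neighbours, was the higher one, with 1 of 35 and 4 of 14 methylated reads. Peg3, a zinc finger gene, had 9 of 16 and 8 of 41, and a promoter of Gnas had 2 of 12 and 0 of 37. Another Gnas promoter, which overlaps that one over most of its length, had 0 of 8 and 0 of 33. A more distant Gnas promoter had 0 of 8 and 0 of 30. Both were below 10 reads in WT, so the lower value of Gnas rests on 2 WT reads at 1 of its promoters. The promoter of Igf2r, the gene that Airn silences, had 0 of 10 and 0 of 61 methylated reads. Of the genes of the 9 regions, 4 could be compared at their promoters, and only Grb10 was higher.

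**Figure D4:**
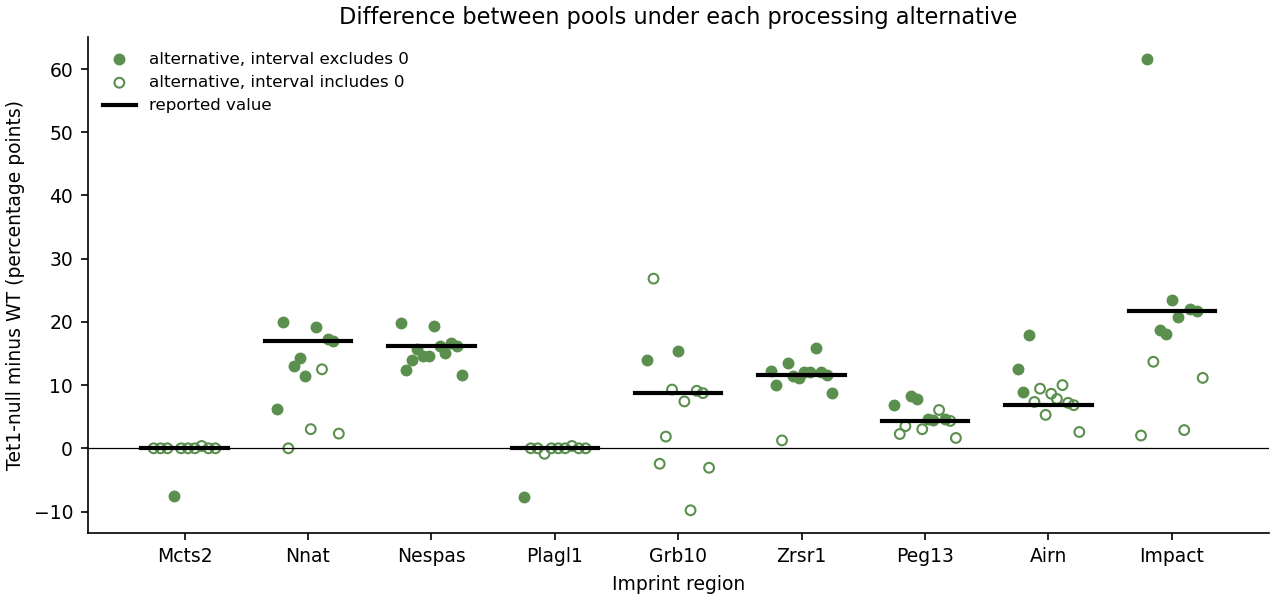
Tet1-null minus WT difference in percentage points (vertical axis) for each region, as reported (black line) and under each processing alternative (circles, filled where the interval excludes 0). All 12 circles of Nespas are filled and lie between 11.6 and 19.8 points, while those of Grb10 lie on both sides of 0.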

How the data were processed

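DNA was tagged by Tn5, converted with bisulfite by a Sigma or Zymo kit and sequenced on a HiSeq, per the labels' protocols. The authors deposited 1 pooled table per genotype with the methylation level per CpG site as a fraction and the count of reads as deposited. Their product was whole at 100% of sites, within 0.0005 per read. Build mm9 and bedtools are named in the submitters' processing notes. How reads were aligned and whether duplicates were removed is not given in the sources used here. The authors also deposited their read filter, which discards a read when C not followed by G makes up over 1.2% of its bases, and this can lower levels. Bisulfite does not separate 5-methylcytosine from 5-hydroxymethylcytosine.

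Reads were summed with pandas 2.3.3 and numpy 2.4.6 under Python 3.11.15, tested with scipy 1.17.1 and plotted with matplotlib 3.10.9. The 1 kb windows needed 5 sites listed in both tables and 20 reads in each, and used all reads. Positions count from 1 on a BED reading of the tables, and an offset of 1 base was not checked. A promoter placement needed 6 listed CpGs. Procedures were tested on simulated data. Every region is named, and of a region's tested windows those with the largest rise and fall and those past the adjusted threshold, with single sites of 5 or more reads in both pools, or else the 3 deepest. Unadjusted Fisher values of single regions were computed and are not printed. The regions, lists and tests were chosen with earlier results of these data known. Impact sequence and sequence around the other regions were not used here.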

Additional observations from a re-analysis of the deposited data

Results flagged for a closer look

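Reads at sites listed in the Tet1-null table only, which the comparison of shared sites does not use, were more often methylated than those at sites listed in the WT table only in 4 regions, with intervals of the difference above 0. In Nespas 69 of 275 reads were methylated, 25.1%, against 0 of 68 in WT. In Grb10 the level was 29.1%, 37 of 127 reads, against 0 of 20. In Zrsr1 it was 21.4%, 12 of 56 reads, against 2 of 42. In Peg13 it was 15.6%, 14 of 90 reads, against 2 of 75. In Plagl1 the order was the opposite, with 4 of 47 WT reads and 0 of 78 Tet1-null reads methylated, a difference of -8.51 points (-19.9 to -1.54). Impact was at -11.0 points (-25.6 to 2.27), Airn at 19.5 (-7.16 to 27.7), Nnat at -0.20 (-9.12 to 4.84), and Mcts2 had no methylated read. These are different sites in the 2 pools, and the part of that in the difference was not tested. The share of autosomal windows that differ by this rule was not computed. The count of 4 regions therefore has no background and is not read as a trait of the regions.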

How the results depend on the processing

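No paired analysis was possible because each table pools the libraries of a genotype, and for the same reason no library could be left out. The difference over the 9 regions together ranged from 9.60 to 13.3 points over 11 alternatives, with every interval above 0. These were all listed sites, equal weight for each region, and each region left out in turn. Sites 100 bp apart, a minimum of reads per site, equal depth and wider intervals for dispersion were tried on single regions only. Over the alternatives for single regions, a call was lost in 15, gained in 7 and the direction reversed in 3. The comparison with flanks kept its call at both other widths in all 9 regions. Windows called higher numbered 361 of 372073, and 430 of 135125 at 500 bp, 316 of 607264 at 2 kb and 264 of 1092567 with 3 sites and 10 reads, so the share called changed more than the number.

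With all listed sites, Grb10 was at 14.01, Airn at 12.5 and Plagl1 at -7.69 points, each with an interval that excluded 0, and Impact fell to 2.02. With 2 or more reads per site in both pools, Peg13 was at 2.26, Airn at 8.93, Grb10 at 26.8 (-8.34 to 50.4) and Impact at 61.5 (21.9 to 82.3), and with 3 or more, Nnat at 0, Zrsr1 at 1.25, Peg13 at 3.51 and Airn at 17.9, from fewer sites. As a mean of site levels, Grb10 reversed to -2.45 and Impact was at 13.7. Widened by 500 bp, Mcts2 was at -7.50 and Peg13 at 3.02. Trimmed, Nnat was at 3.03 and Grb10 at 15.5. On sites 100 bp apart, Nnat was at 12.5, Peg13 at 6.06, Impact at 2.88 and Grb10 reversed to -9.80, on few reads. With wider intervals for dispersion Peg13, at 4.34, lost its call. Without the 100 bp stretch with most Tet1-null methylated reads, chosen after seeing the data, Nnat was at 2.33, Peg13 at 1.64, Impact at 11.1 and Grb10 at -3.08. Other causes were not tested. Plagl1 and Mcts2 gave no value with 2 or more reads per site, and Plagl1, Mcts2, Grb10 and Impact gave none with 3 or more. On sites 100 bp apart, the called windows of Nespas from 174125001 and Grb10 from 11925001 fell to 9.09 and 8.89 points, on few reads. The called window of Nespas from 174124001 was at 50 points there, with 0 of 5 and 2 of 4 methylated reads.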

Other observations

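The WT pool held methylated reads of its own in short places. In Impact the WT methylated reads were at 12 sites, every read of which was methylated, with 1 or 2 reads each, and the longest run had 5 neighbouring sites over 21 bp with 10 of 10 reads methylated. In Plagl1 it had 3 methylated sites, and 2 of them, 18 bp apart from end to end, held 3 of 5 methylated reads. In the Tet1-null pool, Impact had a run of 9 methylated sites over 191 bp with 22 of 37 reads methylated, at another place. Of the 12 WT sites in Impact, 10 held no Tet1-null read, so the pools could not be compared there.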
